A study of Arabidopsis thaliana with 12 samples.

Results

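The genes described here are 38 Arabidopsis thaliana genes of G2 and mitosis, out of the 26702 genes in the table. They were listed by name, with earlier results of these data known, and cover the A-type cyclins, B-type cyclins, B-type cyclin-dependent kinases (CDKB), Aurora kinases, CDC20 and checkpoint genes, cytokinesis and spindle genes, and 2 MYB3R transcription factors. All 38 were in the table. Poly(A)-selected RNA was sequenced from tissue labelled as seedling shoot, 3 days after germination, in 4 groups of 3 libraries labelled as biological replicates. Every plant, controls included, carried mutations in clv3, epfl1, epfl2, epfl4 and epfl6, so the peptide genes CLV3, EPFL1, EPFL2, EPFL4 and EPFL6 were mutant throughout. The mutant alleles are not given in the sources used here. For each library, 10 pooled seedlings stood in 1 ml of liquid medium. The mock group received buffer. The EPFL6 group received 8.7 µl of 10 µM EPFL6 peptide, a final concentration of 86.2 nM. The CHX group was given 10 µM cycloheximide 10 minutes ahead of buffer, and the CHX plus EPFL6 group was given it 10 minutes ahead of the peptide. The time from peptide to harvest is not given in the sources used here.

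Plant cells pass from G2 into mitosis when CDKs bound to A-type and B-type cyclins reach a high activity, and the plant-specific CDKB kinases are themselves most abundant at this stage. The anaphase-promoting complex (APC/C), activated by CDC20, then targets the cyclins for degradation, while Aurora kinases act at the spindle and kinesins and a syntaxin build the new cell plate. Many of these genes are transcribed in a narrow window through MYB3R factors, which bind the mitosis-specific activator (MSA) element with the core AACGG. MYB3R4 is known as an activator, MYB3R3 and MYB3R5 as repressors, and MYB3R1 has been given both roles. EPFL6 is a secreted cysteine-rich peptide of the family perceived by ERECTA receptors, and cycloheximide stops translation on cytosolic ribosomes.

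The MSA core was looked for in the promoter of every gene, and 9 promoters are printed here in part. The 5 B-type cyclin promoters are shown because their cores share order and surrounding letters, the 3 A-type ones because CHX moved these genes furthest down or up in their class, and TES because it alone of the 38 passed the interaction test described further on. Each line is 100 bases ahead of the annotated gene start, read 5′ to 3′ on the gene's strand, from the RefSeq TAIR10.1 genome. Capitals mark the core, as AACGG where it lies on the gene's strand and as CCGTT where it lies on the other.
CYCB1;2 (AT5G06150, chr5:1861710-1861809, minus strand): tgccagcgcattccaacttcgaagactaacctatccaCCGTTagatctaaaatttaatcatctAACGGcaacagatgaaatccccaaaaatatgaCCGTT
CYCB1;3 (AT3G11520, chr3:3627274-3627373, minus strand): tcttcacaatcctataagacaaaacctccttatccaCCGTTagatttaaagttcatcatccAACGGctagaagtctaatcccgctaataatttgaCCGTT
CYCB2;1 (AT2G17620, chr2:7663914-7664013, plus strand): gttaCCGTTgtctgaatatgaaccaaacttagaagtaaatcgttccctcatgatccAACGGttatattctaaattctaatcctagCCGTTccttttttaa
CYCB2;2 (AT4G35620, chr4:16901415-16901514, plus strand): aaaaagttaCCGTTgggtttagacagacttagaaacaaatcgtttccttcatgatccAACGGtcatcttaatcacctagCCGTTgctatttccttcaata
CYCB2;3 (AT1G20610, chr1:7137853-7137952, minus strand): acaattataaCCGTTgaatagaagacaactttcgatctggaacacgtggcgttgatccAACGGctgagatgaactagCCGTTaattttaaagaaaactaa
CYCA1;1 (AT1G44110, chr1:16777495-16777594, minus strand): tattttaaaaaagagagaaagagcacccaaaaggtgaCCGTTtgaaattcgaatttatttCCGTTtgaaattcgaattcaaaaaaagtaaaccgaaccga
CYCA1;2 (AT1G77390, chr1:29084305-29084404, minus strand): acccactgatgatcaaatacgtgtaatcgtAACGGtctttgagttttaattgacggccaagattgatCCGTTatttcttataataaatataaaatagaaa
CYCA2;1 (AT5G25380, chr5:8814296-8814395, plus strand): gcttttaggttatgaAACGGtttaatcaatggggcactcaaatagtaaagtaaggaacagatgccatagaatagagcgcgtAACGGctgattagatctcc
TES (AT3G43210, chr3:15190589-15190688, plus strand): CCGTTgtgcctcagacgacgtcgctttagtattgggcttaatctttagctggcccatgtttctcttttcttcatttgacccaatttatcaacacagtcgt

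In each of the 5 B-type cyclin windows, 3 cores stood in the same order, the first on the opposite strand, the next on the gene's strand and the last on the opposite strand. The 3 CYCB2 windows shared the 11 letters tgatccAACGG around the second core, which 0.109% of all promoters hold, and the 9 letters ctagCCGTT around the last, which 0.197% hold. Their first and second cores began 48 to 52 bases apart, and their second and last 19 to 29. TES holds another core at -41, after the end of its printed stretch. The CYCB1;2 and CYCB1;3 windows shared the 15 letters tatccaCCGTTagat, found in 3 of 27443 promoters, and placed their 3 cores 26 and 32 bases apart in the first gene and 25 and 34 in the second. These shared letters lie between paralogs and were chosen after the sequences were read, so they describe the sequences and carry no test.

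Over a promoter window of 250 bases before to 50 after the annotated start, searched on both strands, the MSA core was present in 26 of the 38 genes (68.4%), against 6765 of 27443 nuclear protein-coding promoters (24.7%). At least 2 cores were found in 17 members (44.7%, against 4.89% of all promoters), and at least 3 in 11 members (28.9%, against 1.06%). The longer form CNAACGG, each match of which is also a match of the core, was in 12 members (31.6%, against 5.52%). By class, 8 of 9 B-type cyclins, 4 of 9 A-type cyclins, 1 of 4 CDKB genes and 13 of the 16 others held a core. The E2F element TTCCCGC, known from S phase promoters, was in 0 of the 38 windows, against 1.53% of all promoters. The MSA element is known from mitosis genes and the E2F element from S phase genes, so the shares in lists named by these roles carry no test. A match describes letters and is neither a bound site nor a cause, and its lack says only that these letters are not in this window.

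**Figure D1:**
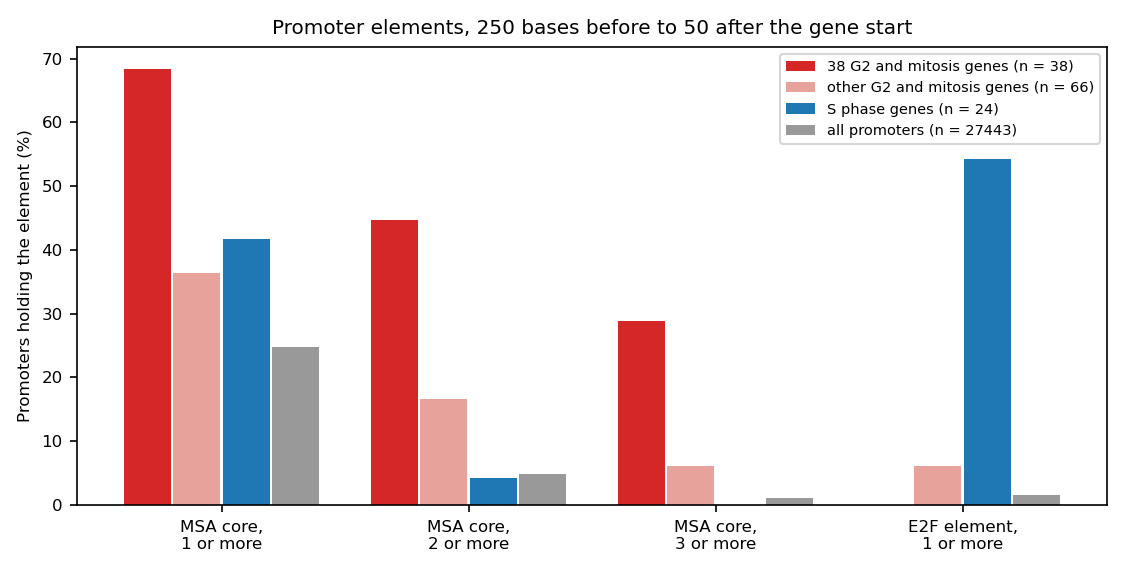
Share of promoters (%, linear axis from 0) holding the MSA core once or more, 2 or more times, 3 or more times, or the E2F element, for the 38 genes (red), 66 other G2 and mitosis genes (pink), 24 S phase genes (blue) and all 27443 promoters (grey). The core reaches 68.4% in the 38 genes and 24.7% over all promoters, and the E2F element reaches 54.2% in the S phase genes and 0% in the 38.

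The 38 windows held 56 cores in all. Of these, 14 (25%) began in the first 50 bases from the gene start onward, where all promoters have 17% of their cores, and 13 (23.2%) in the stretch from -100 to -51, where all promoters have 19%. CYCB1;2, a B-type cyclin that accumulates at mitosis, had the most, with 5.

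**Figure D2:**
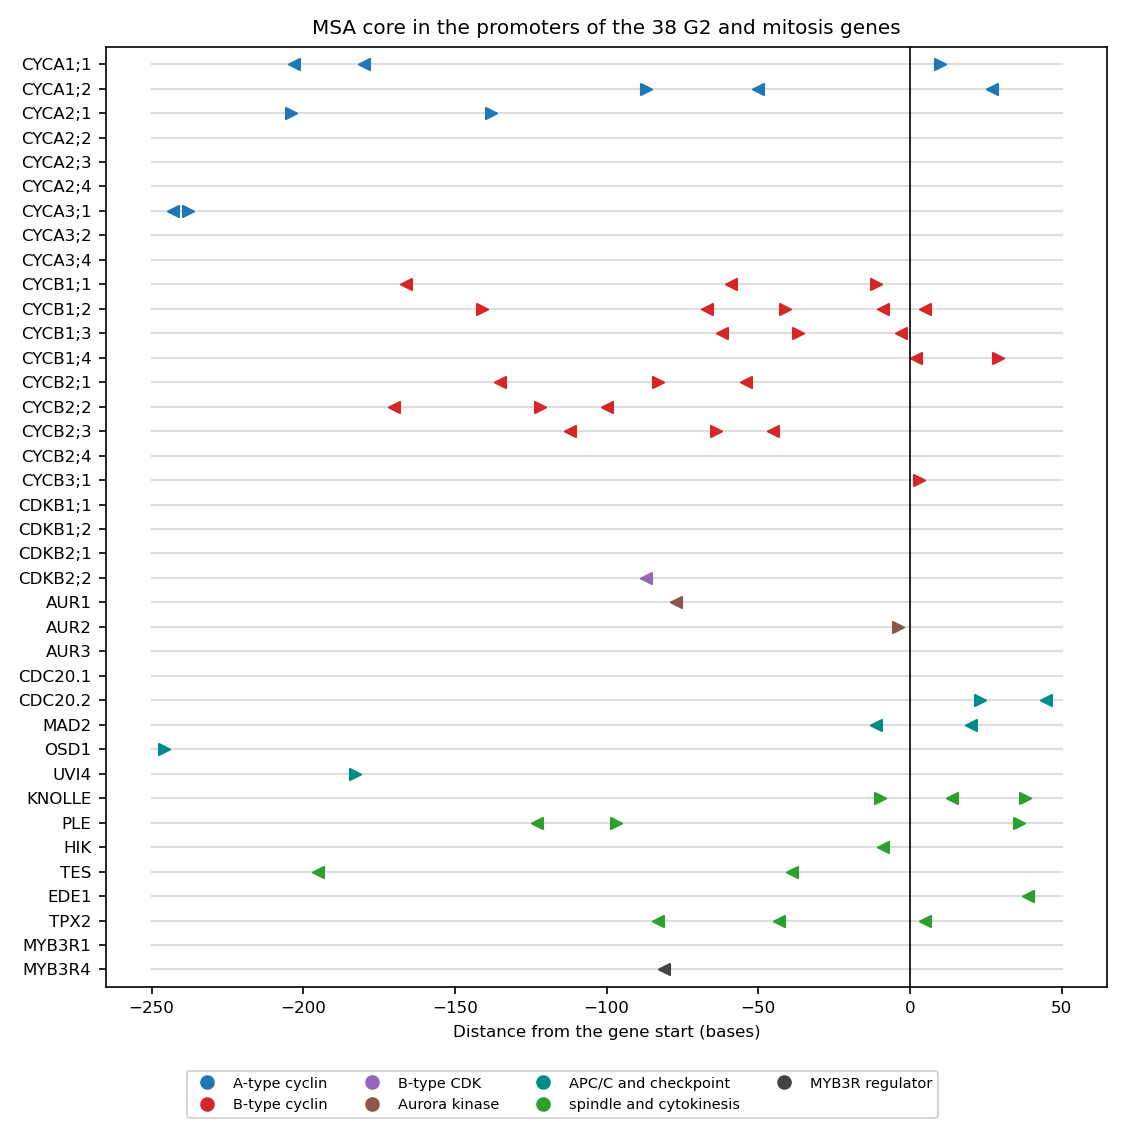
Position of each MSA core in the 38 promoters, as distance from the annotated gene start in bases (negative is upstream). Triangles pointing right are cores on the gene's strand and triangles pointing left are cores on the opposite strand, coloured by gene class, and 12 genes have none.

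Mock libraries held 47.9 to 56.8 M reads and EPFL6 libraries 40.2 to 59.4 M, while those with CHX were deeper, at 85.7 to 107 M for CHX alone and 71.3 to 98.3 M for CHX plus EPFL6. The fewest reads behind any member in any library were 56 (mock), 64 (EPFL6), 30 (CHX) and 21 (CHX plus EPFL6). The first principal component of all genes carried 91.2% of the variance and separated the libraries with CHX from those without. All 8 shoot meristem markers had a mean of at least 10 scaled reads in mock. Root genes were high as well. PRP3, a root hair cell wall protein, was at 2170 ± 463 and CASP1, an endodermal protein, at 1260 ± 197 (SD, n = 3). Whether this RNA came from roots kept with the labelled shoot tissue was not tested. Of the stomatal lineage markers, MUTE (mean 7.38), BASL (mean 6.08) and POLAR (mean 8.47) were under 10 in mock. In bulk RNA such as this, fewer dividing cells and less RNA of a gene per dividing cell cannot be told apart.

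Values below are scaled reads per gene, the authors' reads divided by a size factor for each library, given in the order of replicates 1, 2 and 3. Per kb of transcript, the members in mock ran from 35.7 scaled reads for CYCA2;1 to 830 for the transcription factor MYB3R1 (AT4G32730), with a median of 223. The EPFL6 median was almost equal, at 220 per kb. It was 102 per kb in CHX and 85.3 in CHX plus EPFL6, where CDKB1;2 was lowest at 17.5. Summed over the 38 genes, the members took 340 to 439 of every 1 M reads of the library in mock and 390 to 413 in EPFL6. They took 128 to 137 in CHX and 119 to 126 in CHX plus EPFL6, so the sums with and without CHX did not overlap. Part of this drop is shared by most genes, since library size scaling moved the median log2 change of all genes under CHX to -0.727. In scaled reads the sums were 17900 to 22100 in mock and 10500 to 12300 in CHX. Libraries stood apart within groups: mock replicate 2 was lowest of its group in 36 of the 38 genes, CHX replicate 1 in 31 and EPFL6 replicate 1 in 24.

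**Figure D3:**
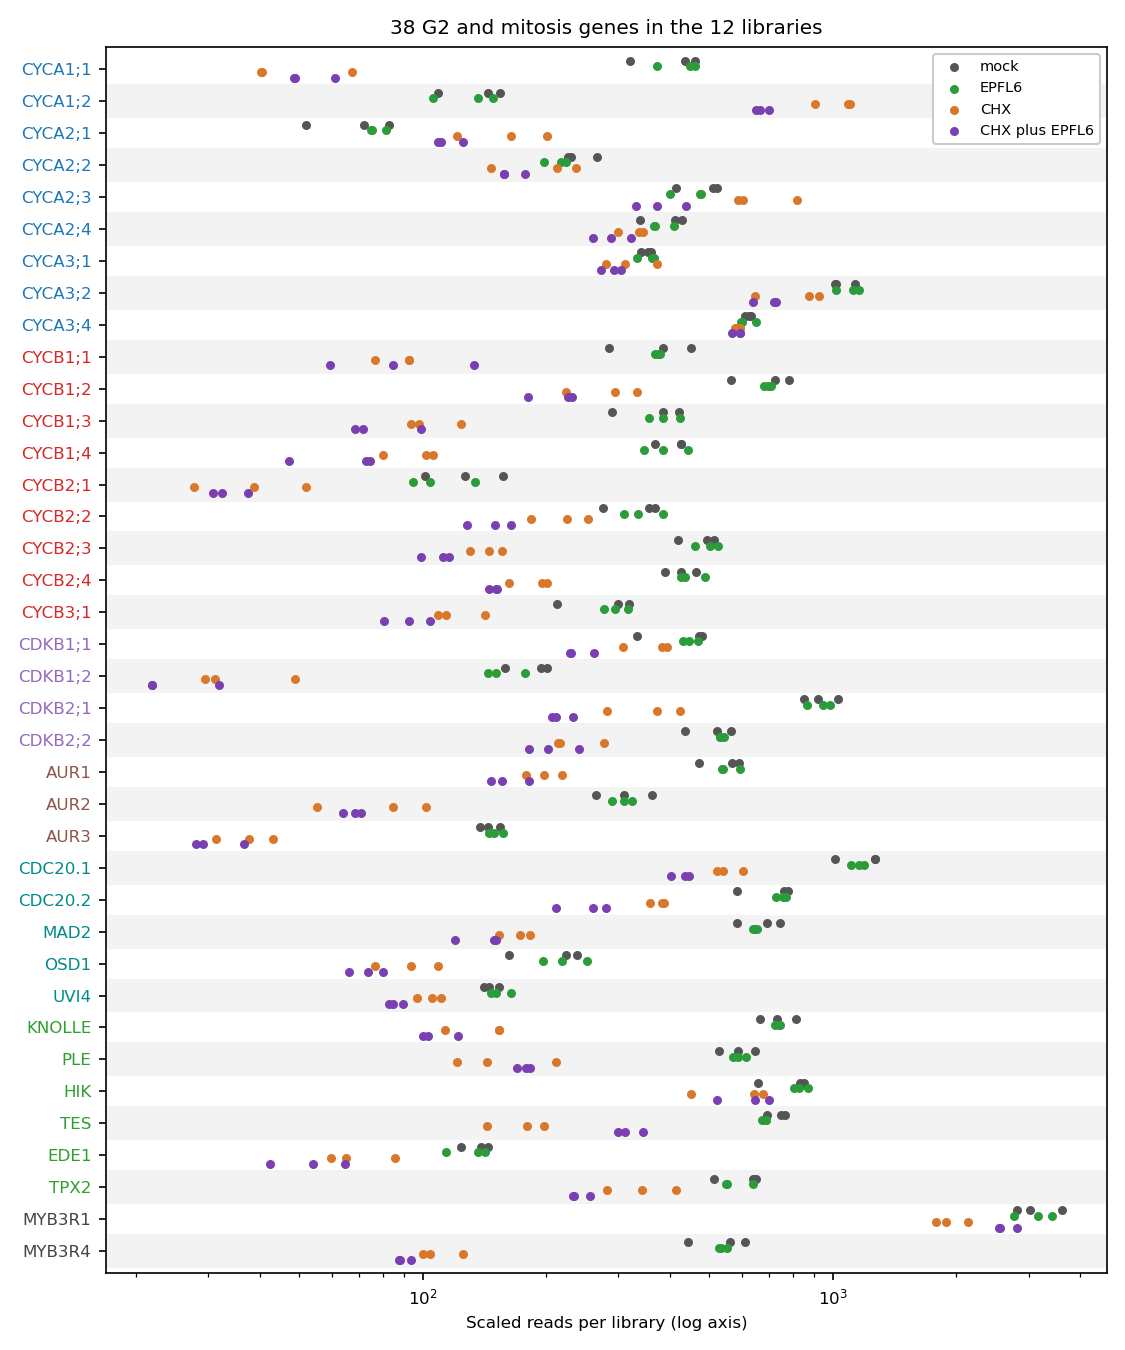
Scaled reads (log axis) of each of the 38 genes in the 12 libraries, with 3 points for each of mock (grey), EPFL6 (green), CHX (orange) and CHX plus EPFL6 (purple), and gene names coloured by class. Mock and EPFL6 points of most genes lie over each other, with both CHX groups to their left. Both CHX groups lie to the right for CYCA1;2 and, on this scaling, for CYCA2;1, whose change from EPFL6 to CHX plus EPFL6 is -0.15 with library size scaling.

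The first comparison, CHX against mock, asks which of these transcripts change when translation is blocked. Of the 38 genes, 30 were lower, 3 were higher and 5 did not pass, against 38.3% of the 23225 genes tested that were lower and 40.9% that were higher (limma, Benjamini-Hochberg adjusted p under 0.05). The median log2 change of the members was -1.15, beside 0.02 over all genes tested. Of the members, 22 were lower by at least 2-fold, against 17.0% of all genes tested. In 33 of 38 the CHX and mock libraries did not overlap, which held for 80.4% of all genes and so says little about the members. With scaling by library size alone, the median of all genes moved to -0.727, the members' counts became 35 lower and 2 higher, and all genes split into 14464 lower and 5634 higher instead of 8895 and 9491.

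All 9 B-type cyclins, the partners of CDKs at mitotic entry, were lower under CHX, by a median log2 of -1.70 and a range of -2.08 to -0.59. The highest of them per kb in mock, CYCB1;2, had 783, 563 and 721 scaled reads in mock, 706, 680 and 693 with EPFL6, 223, 294 and 332 with CHX, and 180, 231 and 226 with both. Every CHX library lay below every mock library, and the log2 change was -1.29 ± 0.16 (SE, adjusted p = 2.1e-05). The widely used mitotic reporter gene CYCB1;1 (AT4G37490) changed by -2.07, CYCB1;4 (AT2G26760) by -2.08 and AT3G11520 by -1.78. In the second B-type subclass, the changes were -1.70 for AT2G17620, -0.59 for AT4G35620, -1.72 for AT1G20610 and -1.20 for CYCB2;4 (AT1G76310). CYCB3;1 (AT1G16330), the only member of its subclass, changed by -1.16. The smallest of these changes, that of AT4G35620, still left no overlap between mock (357, 275 and 369) and CHX (184, 225 and 253).

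The 9 A-type cyclins, which act from S phase into mitosis, went in both directions: 2 were lower, 3 higher and 4 did not pass. CYCA1;1, a mitotic A-type cyclin, had 460, 320 and 437 scaled reads in mock, 372, 447 and 462 with EPFL6, 40.5, 67.1 and 40.4 with CHX, and 48.4, 61.2 and 48.9 with both. Both CHX groups were far below both others, and the 8.21-fold drop (log2 -3.04 ± 0.21, adjusted p = 1.5e-07) was the largest of the 38 genes.

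CYCA1;2, the cyclin also named TARDY ASYNCHRONOUS MEIOSIS for its role in male meiosis, did the opposite. It had 144, 109 and 154 scaled reads in mock, 136, 106 and 148 with EPFL6, 904, 1100 and 1090 with CHX, and 663, 650 and 699 with both. All 6 libraries with CHX lay above all 6 without. CHX raised it 7.60-fold (log2 2.93 ± 0.15, adjusted p = 1.3e-08), which moved it to the highest level per kb of the 38 genes in that group, at 598 scaled reads. Its printed window and that of CYCA1;1 each hold 2 cores, and each whole promoter window holds 3.

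CYCA2;1 had 72.0, 52.0 and 82.5 scaled reads in mock, 81.4, 74.6 and 75.2 with EPFL6, 121, 201 and 164 with CHX, and 111, 109 and 125 with both. The lowest CHX library was above the highest mock library, and CHX raised the gene 2.33-fold (log2 1.22 ± 0.21, adjusted p = 0.00021). CYCA2;3 (AT1G15570), a cyclin known to hold back endoreduplication, had 509, 415 and 521 in mock, 400, 477 and 473 with EPFL6, 604, 586 and 817 with CHX, and 439, 373 and 331 with both. Its CHX libraries lay above mock and the log2 change was 0.46 ± 0.15 (adjusted p = 0.016), but with library size scaling it turned to -0.29, and without mock replicate 2 or CHX replicate 3 it no longer passed.

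CYCA3;2 (AT1G47210), the highest A-type cyclin per kb in mock, had 1020, 1010 and 1130 scaled reads in mock, 1020, 1120 and 1160 with EPFL6, 647, 927 and 874 with CHX, and 639, 725 and 719 with both. It was slightly lower under CHX, by a log2 of -0.38 ± 0.12 (adjusted p = 0.014) and with no overlap. The 4 A-type cyclins that did not pass were CYCA2;2 (AT5G11300, -0.30), CYCA2;4 (AT1G80370, -0.26), CYCA3;1 (AT5G43080, -0.14) and CYCA3;4 (AT1G47230, -0.09).

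Of the 4 plant-specific CDKB kinases, 3 were lower under CHX. CDKB1;2 (AT2G38620) had 194, 159 and 201 scaled reads in mock, 151, 144 and 177 with EPFL6, 29.4, 48.8 and 31.2 with CHX, and 31.9, 21.8 and 21.8 with both. That was a 5.05-fold drop under CHX (log2 -2.34 ± 0.22, adjusted p = 1.8e-06), with all 6 CHX libraries far below the rest. CDKB2;1 (AT1G76540), the most abundant CDKB per kb, had 1030, 848 and 918 in mock, 864, 986 and 946 with EPFL6, 282, 372 and 424 with CHX, and 211, 232 and 206 with both. It was 2.62-fold lower under CHX without overlap (log2 -1.39 ± 0.14, adjusted p = 2.5e-06), and CDKB2;2 (AT1G20930) changed by -1.10. The close relative of the first, CDKB1;1 (AT3G54180), had 471, 332 and 479 in mock and 308, 384 and 395 with CHX, groups that overlap, and its log2 change of -0.23 did not pass (adjusted p = 0.17).

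The 3 Aurora kinases, which phosphorylate histone H3 and spindle proteins, were all lower under CHX. AUR1 (AT4G32830) had 569, 472 and 590 scaled reads in mock, 536, 593 and 541 with EPFL6, 178, 197 and 219 with CHX, and 156, 181 and 147 with both. The groups with and without CHX were well apart, and the log2 change under CHX was -1.45 ± 0.12 (adjusted p = 5.4e-07). AUR2 (AT2G25880) changed by -1.98 and AUR3 (AT2G45490) by -1.94.

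Among the APC/C and checkpoint genes, all 5 were lower under CHX, by a median log2 of -1.08. CDC20.1 (AT4G33270), an APC/C activator, had 1270, 1010 and 1270 scaled reads in mock, 1110, 1160 and 1190 with EPFL6, 522, 541 and 602 with CHX, and 436, 404 and 445 with both. Its log2 change under CHX was -1.08 ± 0.09 (adjusted p = 9.2e-07), and the change of its neighbour CDC20.2 (AT4G33260) was -0.90. The spindle checkpoint gene MAD2 (AT3G25980) changed by -1.97. The APC/C inhibitors OSD1 (AT3G57860) and UVI4 (AT2G42260) changed by -1.14 and -0.48.

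All 6 spindle and cytokinesis genes were lower under CHX as well, by a median log2 of -1.44. KNOLLE (AT1G08560), the cytokinesis syntaxin of the cell plate, had 730, 665 and 813 scaled reads in mock, 741, 724 and 739 with EPFL6, 113, 153 and 153 with CHX, and 103, 100 and 122 with both. Its CHX libraries did not come near its mock libraries, and the drop was 5.27-fold (log2 -2.40 ± 0.13, adjusted p = 1.9e-08). PLE (AT5G51600), the microtubule bundler MAP65-3 of the phragmoplast, changed by -1.92.

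The related cytokinesis kinesins HIK (AT1G18370, NACK1) and TES (AT3G43210, NACK2) changed by unlike amounts. HIK had 852, 656 and 829 scaled reads in mock, 805, 869 and 825 with EPFL6, 452, 643 and 674 with CHX, and 647, 699 and 523 with both. Its mock and CHX libraries overlapped, its log2 change was -0.41 ± 0.16 (adjusted p = 0.035), and it passed in 18 of 23 alternative fits. TES had 749, 689 and 764 in mock, 671, 688 and 687 with EPFL6, 198, 143 and 179 with CHX, and 311, 299 and 345 with both. Its 4.25-fold drop under CHX (log2 -2.09 ± 0.11, adjusted p = 1.5e-08) left no overlap, though the difference between the kinesins was not itself tested. The spindle assembly factor TPX2 (AT1G03780) changed by -0.80 and the microtubule-associated EDE1 (AT2G44190) by -0.96.

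Both MYB3R members were lower under CHX. MYB3R4 (AT5G11510), the activator, had 561, 442 and 609 scaled reads in mock, 528, 534 and 553 with EPFL6, 100, 104 and 125 with CHX, and 87.4, 88.2 and 93.6 with both. It dropped 4.85-fold under CHX (log2 -2.28 ± 0.13, adjusted p = 2.2e-08), and its groups with and without CHX were far apart. MYB3R1 had 3030, 2810 and 3610 in mock, 3170, 2760 and 3420 with EPFL6, 2140, 1780 and 1890 with CHX, and 2540, 2810 and 2550 with both. Its CHX libraries were below mock by a log2 of -0.70 ± 0.11 (adjusted p = 0.00012).

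**Figure D4:**
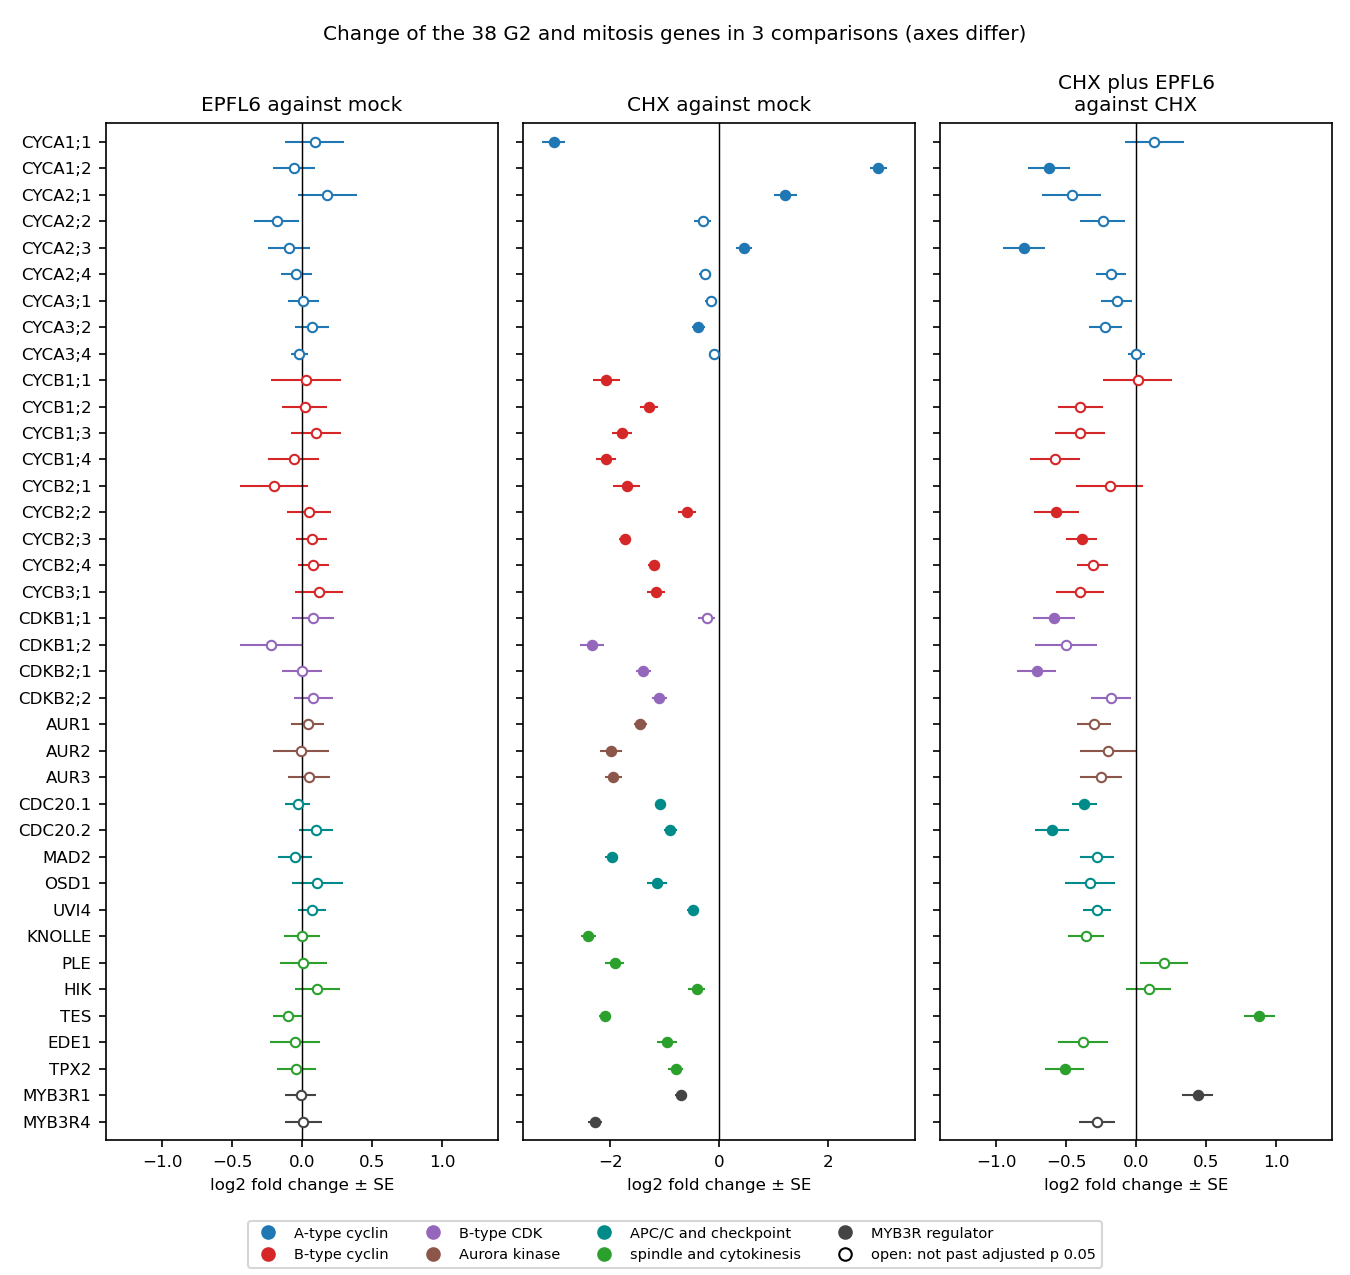
Log2 fold change ± SE of each of the 38 genes for EPFL6 against mock (left, -1.4 to 1.4), CHX against mock (middle, wider axis) and CHX plus EPFL6 against CHX (right), coloured by class, with filled points past an adjusted p of 0.05. The middle panel has 30 filled points left of 0 and 3 to the right, of which CYCA2;3 moves to -0.29 with library size scaling, the left panel has none filled, and the right panel has 9 filled left and 2 filled right (TES and MYB3R1).

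Promoter cores and the CHX response were set side by side. Of the 30 lowered genes, 23 held an MSA core and 14 held at least 2, and 2 of the 3 raised genes and 1 of the 5 that did not pass held one. The median log2 change was -1.72 in the 17 genes with at least 2 cores (range -3.04 to 2.93), -1.14 in the 9 with 1 core (range -2.28 to -0.41) and -0.54 in the 12 with none (range -2.34 to 0.46). Gene class and core number were mixed, since only 4 of the 9 A-type cyclins, with a median change of -0.14, held a core. Whether the change depends on the number of cores was not tested, and cores were not counted over all genes that CHX lowered. The ranges overlapped widely, since the gene CHX lowered most and the gene it raised most both held 3 cores, and CDKB1;2 fell 5.05-fold with none. The longer form CNAACGG had 2 matches in the first of these, CYCA1;1, and 0 in CYCA1;2 and CDKB1;2.

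Tissue markers moved in the same comparison. The summed scaled reads of 12 root markers were 8470 to 11100 in mock and 3360 to 3770 in CHX, with 8 lower and 2 higher, and those of 4 photosynthesis genes were 537000 to 1150000 and 317000 to 441000, with all 4 lower. The 8 shoot meristem markers summed to 3560 to 3620 in mock and 6800 to 7530 in CHX, with 4 higher and 3 lower. The 7 stomatal lineage markers summed to 602 to 688 and 602 to 763, and no marker of the 4 lists was without reads in a whole group. Their part in the result was not tested.

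EPFL6 against mock asks what the peptide does with translation running. None of the 38 genes passed in either direction, by limma, edgeR or DESeq2, and none had an unadjusted p under 0.05, while 708 of all 23225 genes did. Over all genes, 0.00% were higher and 0.0172% lower by limma, and DESeq2 called 10 genes higher and 21 lower. The members' log2 changes lay between -0.22 and 0.18, with a median of 0.01, and their 95% intervals together spanned -0.74 to 0.64. The lowest unadjusted p-value, 0.29 in limma, belonged to CYCA2;2, an A-type cyclin with 230, 226 and 266 scaled reads in mock, 197, 224 and 217 with EPFL6, 147, 213 and 236 with CHX, and 158, 158 and 177 with both. Its EPFL6 libraries all lay below its mock libraries, by a narrow gap (log2 -0.18). CDKB1;2 (-0.22) and TES (-0.10) came next, and in CDKB1;2 the mock and EPFL6 libraries overlapped.

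CHX plus EPFL6 against CHX asks what the peptide does when translation is blocked. Here 9 of the 38 genes were lower and 2 higher, against 7.63% and 5.89% of all genes tested. The members' median log2 change was -0.30, beside 0.00 over all genes, 32 of 38 changes were below 0, and 22 had an unadjusted p under 0.05, as did 7282 of all 23225 genes. No member reached 2-fold in either direction, beside 4.59% of all genes. The 9 lowered genes were spread over the classes, with 2 A-type cyclins, 2 B-type cyclins, 2 CDKB kinases, both CDC20 genes and TPX2, and no Aurora kinase passed here under any of the 23 alternative fits. The count of lowered members depended on single libraries: it was 16 without CHX replicate 1, 3 without CHX replicate 2 and 2 without CHX replicate 3. It was 3 to 4 when any replicate of CHX plus EPFL6 was left out. The count over all genes moved in the same fits. From 1773 lower in the main fit it went to 2108, 1082 and 731 without CHX replicates 1, 2 and 3. Without a replicate of CHX plus EPFL6 it was 800 to 1503.

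CYCA2;3 had the largest decrease. Its 439, 373 and 331 scaled reads with both agents lay below its 604, 586 and 817 with CHX, a 1.75-fold difference (log2 -0.80 ± 0.15, adjusted p = 0.0096). AT1G77390, the A-type cyclin that CHX had raised most, was also lower with the peptide, at 663, 650 and 699 against 904, 1100 and 1090 (log2 -0.62 ± 0.15, adjusted p = 0.026). It stayed above its mock and EPFL6 levels, and passed in 18 of 23 alternative fits (adjusted p up to 0.097). AT5G25380, likewise raised by CHX, had overlapping groups here and did not pass (-0.46, adjusted p = 0.15).

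Both CDKB kinases that moved are partners of A-type and B-type cyclins in plant cells. CDKB2;1 was at 211, 232 and 206 with both agents and 282, 372 and 424 with CHX (log2 -0.71 ± 0.14, adjusted p = 0.010). CDKB1;1, which CHX alone had not changed past the threshold, had 430, 445 and 468 scaled reads with EPFL6, and was at 229, 261 and 230 with both agents against 308, 384 and 395 with CHX (log2 -0.59 ± 0.15, adjusted p = 0.026). In neither kinase did the groups overlap, and CDKB1;1 passed in 19 of 23 alternative fits (adjusted p up to 0.10).

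Of the B-type cyclins, AT4G35620 had 310, 334 and 385 scaled reads with EPFL6, and 150, 164 and 128 with both agents against 184, 225 and 253 with CHX (log2 -0.57 ± 0.16, adjusted p = 0.038). AT1G20610 had 512, 418 and 493 in mock, 460, 502 and 524 with EPFL6, 130, 156 and 145 with CHX, and 112, 116 and 98.8 with both (log2 -0.39 ± 0.11, adjusted p = 0.044 against CHX). These were narrow gaps, and the genes passed in 14 and 10 of the 23 alternative fits, with adjusted p up to 0.14 in both. The other 7 B-type cyclins did not pass, and the median of all 9 was -0.40.

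The APC/C activator CDC20.2 had 758, 584 and 779 scaled reads in mock, 725, 757 and 769 with EPFL6, 359, 388 and 382 with CHX, and 260, 279 and 211 with both. Every library with both agents was below every CHX library (log2 -0.60 ± 0.12, adjusted p = 0.014), and CDC20.1 had a smaller difference of the same sign (-0.37 ± 0.09, adjusted p = 0.028). These neighbouring paralogs share 31.4% and 34% of their 50-base stretches, so reads could be split between them. TPX2 had 638, 514 and 648 in mock, 553, 548 and 640 with EPFL6, 282, 343 and 415 with CHX, and 234, 232 and 256 with both, again with no overlap between the CHX groups (log2 -0.51 ± 0.14, adjusted p = 0.038). Of the 23 alternative fits, TPX2 passed in 14 (adjusted p up to 0.14), CDC20.1 in 17 (up to 0.11) and CDC20.2 in 22 (up to 0.053).

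The 2 genes that were higher with the peptide were TES and MYB3R1. TES, whose product drives phragmoplast expansion and is needed for cytokinesis after male meiosis, rose 1.84-fold from 198, 143 and 179 to 311, 299 and 345 (log2 0.88 ± 0.11, adjusted p = 0.0016). It had the lowest p of the 38 genes here and passed in all 23 alternative fits, yet stayed below its mock and EPFL6 libraries. MYB3R1 went from 2140, 1780 and 1890 to 2540, 2810 and 2550 (log2 0.44 ± 0.11, adjusted p = 0.026), so that its CHX plus EPFL6 libraries overlapped those of EPFL6 alone, and it passed in 19 of 23 fits. TES overlaps no other annotated gene and shares no 50-base stretch with another transcript. MYB3R1 overlaps AT4G32750, on the opposite strand, by 214 bases.

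**Figure D5:**
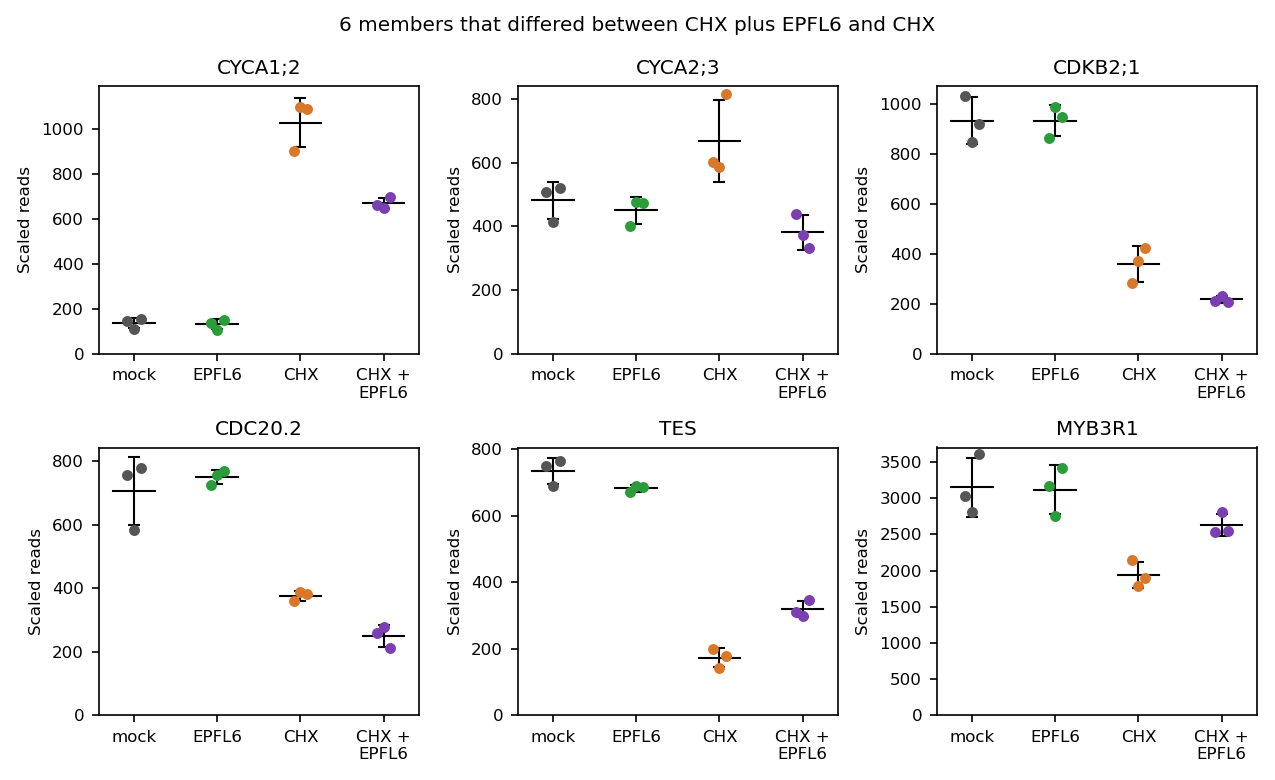
Scaled reads (linear axes from 0) of CYCA1;2, CYCA2;3, CDKB2;1, CDC20.2, TES and MYB3R1 in the 4 groups, with a point per library, a bar at the mean and whiskers of 1 SD (n = 3). TES and MYB3R1 are higher in CHX plus EPFL6 than in CHX, and the other 4 are lower.

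Meristem markers moved in this comparison too. The 8 shoot meristem markers summed to 6800 to 7530 scaled reads in CHX and 1390 to 1480 in CHX plus EPFL6, with 7 lower and 0 higher (limma; 8 with an unadjusted p under 0.05). The 12 root markers summed to 3360 to 3770 and 2810 to 3250, with 2 lower, the photosynthesis genes to 317000 to 441000 and 377000 to 580000, with no call, and the stomatal markers to 602 to 763 and 517 to 604, with 1 lower. Their part in the result was not tested.

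The interaction asks whether the EPFL6 change with CHX differs from that without. Only TES passed, being higher by a log2 of 0.99 ± 0.16 (limma adjusted p = 0.018), since EPFL6 alone had given -0.10. Of all genes tested, 0.366% were higher and 1.14% lower, and an unadjusted p under 0.05 was found in 14 members and in 4464 of all genes. The members' median was -0.33, from -0.71 to 0.99. TES lost its call without mock replicate 1 (adjusted p = 0.058) and without CHX plus EPFL6 replicate 3 (adjusted p = 0.050), and over its 22 alternative fits the adjusted p ran from 2e-07 to 0.058. No member passed as lower in the main limma fit or in edgeR, while DESeq2 called 3 and limma without CHX replicate 1 called 1. The lower calls over all genes rose in the same fits, from 264 in the main fit to 641 without CHX replicate 1, and further with DESeq2. These member counts are therefore not to be read against the main-fit share of 1.14%. For the genes EPFL6 lowered under CHX, the main limma fit thus did not show a difference from its effect without CHX. CYCA2;3 was at -0.71 (adjusted p = 0.12) and CDKB2;1 at -0.71 (adjusted p = 0.091) in that fit. Of 22 alternative fits, CYCA2;3 passed in 1 and CDKB2;1 in 2.

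The last comparison sets CHX plus EPFL6 against EPFL6 alone and shares its CHX plus EPFL6 libraries with the peptide comparison above. With peptide in both groups, 32 of the 38 genes were lower under CHX and 2 higher, against 37.7% and 40.2% of all genes tested. The median log2 change was -1.58 beside 0.03 over all genes, and 26 genes were lower by at least 2-fold, against 17.6% of all genes. With library size scaling 36 members were lower and 1 higher, and all genes split into 14450 lower and 5366 higher instead of 8756 and 9340. CYCA1;1 again had the lowest value (-2.99), followed by KNOLLE (-2.76). The raised genes were AT1G77390 (2.37) and AT5G25380 (0.57, adjusted p = 0.025), and the latter turned to -0.15 with library size scaling. The 4 that did not pass were AT5G11300 (-0.37), AT1G15570 (-0.25), AT1G47230 (-0.07) and MYB3R1 (-0.24). The 12 root markers summed to 10200 to 11700 scaled reads in EPFL6 and 2810 to 3250 with both agents, with 9 lower and 2 higher. The 8 shoot meristem markers summed to 2730 to 3710 and 1390 to 1480, with 4 lower and 1 higher. Of the 4 photosynthesis genes 2 were lower, and of the 5 stomatal markers tested 1 was lower and 2 were higher. The part of the markers in the result was not tested.

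A second list of 66 other G2 and mitosis genes, 62 of them tested, was set beside the 38. EPFL6 alone gave no call among them by limma, and none had an unadjusted p under 0.05. Under CHX, 39 were lower and 14 higher against mock, beside 38.3% and 40.9% of all genes tested, with a median log2 of -0.62. Library size scaling made this 52 and 6, where all 23225 genes split into 14464 lower and 5634 higher. The largest decreases were in the microtubule bundler MAP65-4 (AT3G60840, -2.91), the CDK-binding subunit CKS2 (AT2G27970, -2.75) and AT4G14330 (-1.95). The largest increases were in MYB3R2 (AT4G00540), CYCA3;3 (AT1G47220) and KEU (AT1G12360, 1.81), which encodes the Sec1-type partner of KNOLLE. MYB3R2 went from 4 reads over the mock libraries to 3838 over the CHX libraries, a ratio of 885 in scaled reads with a 95% counting interval of 346 to 3250. CYCA3;3 had 0 reads in mock and 54 in CHX, at least 16.6-fold higher with a floor of 3 reads over the group. These intervals and floors cover counting error only.

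MYB3R3 and MYB3R5, known as repressors, rose under CHX, as did MYB3R2, while MYB3R1 and MYB3R4 fell. Of all genes tested, 40.9% were higher and 38.3% lower in that comparison. Whether these directions follow the known roles was not tested. MYB3R5 (AT5G02320) had 297, 295 and 297 scaled reads in mock, 275, 252 and 270 with EPFL6, 1030, 1070 and 938 with CHX, and 1300, 1540 and 1400 with both. The 4 groups did not overlap, and the gene rose under CHX by a log2 of 1.77 (adjusted p = 3.8e-09) and again with the peptide under CHX by 0.47 (adjusted p = 0.0061). MYB3R3 (AT3G09370), named here after its values were seen, changed by 1.18 under CHX and by 0.29 with the peptide (adjusted p = 0.030). In the peptide comparison under CHX, 4 of the 62 tested genes of the second list were higher and 1 lower, with a median log2 of -0.10, beside 5.89% and 7.63% of all genes, so the calls are near or below the background, and library size scaling left 2 and 0. Besides both MYB3R genes, the calls were MPK4 (AT4G01370, 0.38), a MAP kinase of cytokinesis, CKS1 (AT2G27960, 0.29) and, lower, the spindle kinesin ATK1 (AT4G21270, -0.51, adjusted p = 0.047). Of these 5 genes, MYB3R5 and MPK4 passed in all 23 alternative fits, MYB3R3 in 17, ATK1 in 8 and CKS1 in 6.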

How the data were processed

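Libraries were made from poly(A) RNA with a TruSeq mRNA kit, per the labels' protocols. Per the submitters' processing notes, the tools included DESeq2 1.26.0, featureCounts 2.0.0 and STAR 2.7.6a, with TAIR10 as the genome. The counting mode and strand setting are not given in the sources used here. Reads of overlapping genes (13 of the 38 members overlap another) and of near copies can therefore be shared. At least 10% of the 50-base stretches are shared with another transcript in 9 members. Among them are AUR2 (35.5%) and KNOLLE (31%), each mostly with the gene that it overlaps. What the authors deposited for each gene is a scaled signal, namely whole reads divided by a size factor per library. This was checked on the values, of which 100% were whole reads within a relative tolerance of 1e-06 once multiplied by the factor. No column was left unmapped (0).

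A pseudocount of 1 was added to the signal, and limma 3.58.1 (R 4.3.3) was run on the log2 scale over all 12 libraries at once, with an intensity trend and robust moderation. The 23225 genes that reached 10 in 3 or more libraries were tested. Tests were two-sided, with Benjamini-Hochberg adjustment over all genes and a threshold of 0.05. The procedure was tested on simulated data. On the recovered reads, edgeR 4.0.16 with TMM called 9433 genes higher and 9051 lower for CHX against mock, 1321 and 1995 for CHX plus EPFL6 against CHX, 0 and 2 for EPFL6 against mock, 9206 and 8884 for CHX plus EPFL6 against EPFL6, and 78 and 251 for the interaction. DESeq2 1.42.0 was a further alternative and called more genes with EPFL6 than limma. It called 10 higher and 21 lower for EPFL6 against mock, where limma called 0 and 4. For CHX plus EPFL6 against CHX it called 2119 and 2594 (limma 1367 and 1773), and for the interaction 542 and 975 (limma 85 and 264). Against mock, CHX gave 9533 and 8974 with DESeq2, and CHX plus EPFL6 against EPFL6 gave 9336 and 8823.

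The members and lists were chosen with earlier results of these data known. All 38 members are named. Values in every library are given for members that passed in EPFL6 against mock, in CHX plus EPFL6 against CHX or in the interaction. They are also given for members that CHX raised, the 4 it lowered most, the 2 it lowered least and the highest per kb of each class. The 3 of lowest p in EPFL6 against mock and in CHX plus EPFL6 against CHX complete the rule. From the other lists the 3 largest changes per direction are named. Lengths, gene positions and promoter letters come from RefSeq TAIR10.1, whose locus tags matched 26514 of the 26702 genes.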

Additional observations from a re-analysis of the deposited data

Results flagged for a closer look

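In 2 genes the change with EPFL6 differed between seedlings with and without CHX, by the interaction term in limma. They were 1 of the 38 members and 1 of the 62 tested genes of the second list, with 0 of the 24 S phase genes. Of all genes tested, 0.366% were higher and 1.14% lower by this term. TES, a cytokinesis kinesin and member of the 38 genes, had a difference of 0.99 ± 0.16 on the log2 scale (adjusted p = 0.018), being higher in 3 of 3 CHX plus EPFL6 libraries than in every CHX library while EPFL6 alone gave -0.10. It passed in 20 of 22 alternative fits. MYB3R5, a MYB3R repressor from the list of other G2 and mitosis genes, had a difference of 0.63 (adjusted p = 0.027), with all 3 CHX plus EPFL6 libraries above all 3 CHX libraries. It passed in 13 of 22 alternative fits, with adjusted p up to 0.074.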

How the results depend on the processing

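Each test was repeated under 23 alternatives, 22 for the interaction. All 874 member values for EPFL6 against mock stayed short of the threshold, though 58, from 29 genes with main changes of at most 0.18, did not keep their sign to 2 decimals. For CHX against mock, 852 of 874 stayed on their side and 873 kept their sign. With both agents, 813 stayed and 861 kept their sign relative to CHX, and 846 and 873 did relative to EPFL6. In the interaction, 830 of 836 stayed and 801 kept their sign. Apart from the reversals below, sign changes in the last 3 comparisons were in genes whose main change was at most 0.19. Library size scaling reversed CYCA2;3 for CHX against mock (-0.29) and CYCA2;1 for CHX plus EPFL6 against EPFL6 (-0.15), and left 1 gene higher in the latter, since it shifts all changes with CHX down. For CHX plus EPFL6 against CHX, 5 members were lower when only the compared groups were fitted, and 2 to 16 with a library left out. Over all genes these counts were 984 and 731 to 2108, beside 1773 in the main fit. Members higher there numbered 1 to 2 with a library left out (1 without CHX replicate 3, and 1 without either of replicates 2 and 3 with both agents), as for CHX plus EPFL6 against EPFL6. In the interaction, 3 were lower with DESeq2, and leaving out a library gave 0 to 1 higher and 0 to 1 lower. Over all genes, DESeq2 also called more genes lower there than the main fit. With a library left out, 77 to 641 of all genes were lower, beside 264 in the main fit. The causes were not tested. Same-numbered libraries were not shown to be paired, with deviations correlated from -0.222 to 0.416 over 18 pairs and 8 above 0.1. With a replicate block, 3 members were higher and 29 lower for CHX against mock, and 0 and 0 for EPFL6 against mock. With both agents the counts were 2 and 7 relative to CHX, 2 and 33 relative to EPFL6, and 1 and 0 in the interaction. In the other G2 and mitosis list, DESeq2 called 5 higher and 8 lower for CHX plus EPFL6 against CHX, against 4 and 1. Over all 23225 genes it called 2119 and 2594, against 1367 and 1773 in the main fit. With 3 libraries a group, EPFL6 changes inside the intervals given could not be told from none.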

Other observations

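The 24 S phase genes were set beside the 38 G2 and mitosis genes, with no test between the lists. Under CHX, 9 were higher and 7 lower against mock, shares no larger than the 40.9% and 38.3% of all genes, with a median log2 of 0.15, and with library size scaling 1 was higher and 19 lower. The ribonucleotide reductase subunit RNR2A (1.04) and the replication origin subunit ORC3 (0.90) were among the highest and stayed above 0 with that scaling (0.29 and 0.15), while the helicase subunit MCM6 went from 0.69 to -0.06. The licensing factor CDT1B (-1.33) and the sliding clamps PCNA2 (-1.19) and PCNA1 (-1.09) were lowest. Their promoters held the E2F element TTCCCGC in 13 of 24 cases (54.2%), against 1.53% of all promoters and 0 of the 38 members, while 10 of 24 (41.7%) held the MSA core.

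Under CHX, EPFL6 lowered 5 of the 24 S phase genes and raised 1, beside 7.63% and 5.89% of all genes, with a median log2 of -0.25. Among the 5 that passed, MCM7 (-0.39), CDT1A (-0.38) and MCM4 (-0.32) had the largest decreases, and the thymidine kinase TK1a rose by 0.64 (limma adjusted p = 0.035). With only the compared groups fitted the counts were 0 and 0, without CHX replicate 3 they were 0 lower and 0 higher, and without CHX replicate 1 they were 9 lower and 1 higher. Over all genes these 3 fits called 984, 731 and 2108 lower, beside 1773 in the main fit. EPFL6 alone gave no call in this list by limma, edgeR or DESeq2, with 1 gene at an unadjusted p under 0.05.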
